A study of Mus musculus with 4 samples.

Results

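The genes described here run the cell division cycle: regulators of its G1 phase, the machinery that copies DNA, and the kinases and structural proteins of mitosis. A list of 36 mouse genes was set by name. Of these, 34 have a probe set that the annotation pairs with that gene alone, out of 22180 genes so represented on the arrays. Where a gene has several probe sets, the brightest on average stands for it. The cyclin genes Ccnb1 and Ccne2 have no such probe set and are not analysed here.

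RNA from the quadriceps, a thigh muscle, was measured on 1 whole-transcript array per mouse. The study compared 2 wild-type (WT) mice with 2 double transgenic (dbTg) mice that carry transgenes for both NF90 and NF45. NF90 binds double-stranded RNA, and NF45 is its partner protein. Replicate 1 of each group was male and replicate 2 female. Ages were 17 to 18 weeks for WT replicate 1 and 16 weeks for the 3 others. Neither the promoter driving the transgenes nor littermate status is stated in the labels. Ilf2, the gene of NF45, read 5.03 and 5.04 on the log2 scale in WT and 10.36 and 10.16 in dbTg, so the arrays match their labels for that transgene product. The 10 markers of skeletal muscle fibres had a summed level of 0.94 to 1.04 times the WT mean on the 4 arrays. That linear sum mostly follows the brightest of them. Their single dbTg minus WT differences ran from -0.36 to 0.51 on the log2 scale, with 4 positive and 6 negative. Myh4, the fast myosin heavy chain IIb, read 11.10 and 11.10 in WT and 11.15 and 11.04 in dbTg.

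Adult muscle fibres are multinucleate and do not divide. Cycling in muscle is known from satellite cells, the stem cells that feed repair, and from immune, vascular and connective tissue cells. Entry into the cycle is driven by D cyclins with Cdk4 or Cdk6 and then by E cyclins with Cdk2. These kinases release the E2F factors from the retinoblastoma protein, and E2F factors switch on replication genes. CDK inhibitors hold the kinases back. Genes of the late cycle peak in G2 and mitosis under the DREAM and MuvB complexes, which bind promoters at CHR elements.

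Muscle of dbTg mice had more Cdk6 RNA than WT muscle, and no other cell cycle gene of the 34 passed the test. The other G1 cyclins, G1 kinases and CDK inhibitors had positive differences, none of which passed. In the late cycle groups the signs were mixed: 2 of 3 G2 and mitosis cyclins and CDK, 3 of 7 mitotic kinases and checkpoint genes and 3 of 3 genes of chromosome structure and proliferation were positive. The fit covered the 13308 genes whose mean over the arrays reached the 40th percentile, 1.48 on the log2 scale. In this limma fit, with a Benjamini-Hochberg adjusted p threshold of 0.05, 1 member of the 25 tested was called higher and 0 were called lower. Of all tested genes 2.21% were called, 2.01% as higher. The members' share, 4%, is 1 gene. With no adjustment and p under 0.05, 7 of the 25 were higher and 0 lower, where 14% of all tested genes were higher and 4.64% lower. The other 9 members, E2f1, Mcm5, Ccna2, Cdk1, Bub1, Bub1b, Birc5, Top2a and Cenpa, lay under the filter. Top2a was the member just under it and Rrm2 the member just above it, with means of 1.44 and 1.48. Blocking on sex, which is the replicate number, took the count of members called from 1 to 0. It took the count of all genes called higher from 267 to 63. Leaving out either dbTg array lowered the count of calls among the members and among all tested genes. Leaving out either WT array raised both counts. With 1 array left out, the group with 1 array, dbTg or WT, is assumed to vary like the other group's pair.

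Over all 34 members, including those under the filter, the median dbTg minus WT difference was 0.24 on the log2 scale, and 26 differences were positive and 8 negative. The median over all 22180 genes was -0.02, and 47.9% of them were positive. Both dbTg arrays lay above both WT arrays for 15 of the 34 members, against 23.8% of all genes. Both lay below for 2 members, against 24.1% of all genes. The 17 other members overlapped between the groups. Of the 34 members 25 are among the 13308 tested genes, which leave out the dim ones. The tested genes had a median of 0.09. Both dbTg arrays lay above both WT arrays for 33.7% of them and below for 16.3%. The members were chosen with earlier results of these data known, so the list as a whole was not tested. RNA from whole muscle cannot tell more cells of a type from more RNA per cell.

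**Figure D1:**
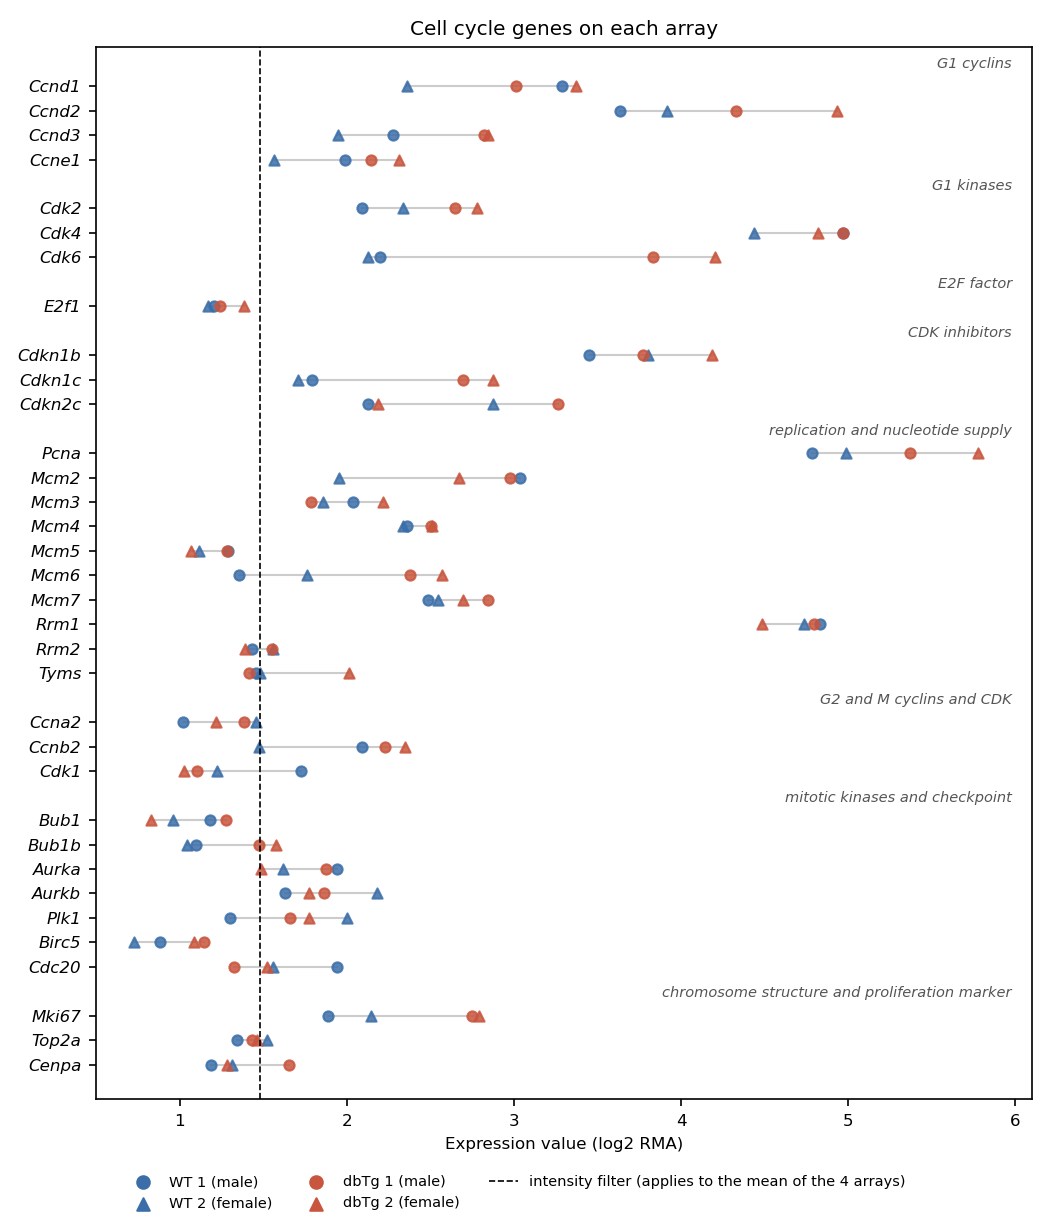
Log2 RMA value of each of the 34 cell cycle genes on the 4 arrays, by role; blue is WT, red is dbTg, circles are male and triangles female, and the dashed line is the intensity filter at 1.48. Cdk6 has both red points at 3.83 or higher and both blue points at 2.20 or lower, while most mitosis genes lie near or left of the line with colours mixed.

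Among the G1 kinases, Cdk6 stood at 2.20 and 2.13 on the WT arrays and at 3.83 and 4.20 on the dbTg arrays. The groups did not overlap, with a gap of 1.63 between the nearest arrays. Cdk6, the D cyclin partner known from blood cells and progenitors, rose 3.61-fold (log2 difference 1.85, SE 0.23, n = 2 each, limma adjusted p = 0.0187). The male pair differed by 1.63 and the female pair by 2.07. Its difference exceeded that of 99.5% of all genes. Leaving out 1 array gave differences of 1.67 to 2.04. Neither dbTg array alone kept the call: adjusted p was 0.125 when dbTg replicate 1 was left out and 0.228 when dbTg replicate 2 was. It was 0.0602 with sex as a block. Cdk4, the other D cyclin kinase, read 4.97 and 4.43 in WT and 4.97 and 4.82 in dbTg, so the groups overlapped. Its difference was 0.19, with a 95% interval of -0.36 to 0.74 (limma adjusted p = 0.717), and -0.08 without WT replicate 2. Cdk2, the kinase of the E and A cyclins, read 2.09 and 2.33 in WT and 2.65 and 2.78 in dbTg. The Cdk2 groups did not overlap, but the difference of 0.50 had a 95% interval of -0.02 to 1.02 and did not pass (limma adjusted p = 0.280).

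Because Cdk6 is the called member, the 250 bases before its RefSeq start are shown, chr5:3343643-3343892 of GRCm38.p6, plus strand. Letters of an E2F site (TTTCGCGC, TTTGGCGC, TTTCCCGC or TTTGCCGC), a CHR element (TTTGAA or TTCGAA) or a CCAAT box (CCAAT) on either strand would be in capitals. None of these letters is in this stretch, which says nothing about binding by their factors.
Cdk6: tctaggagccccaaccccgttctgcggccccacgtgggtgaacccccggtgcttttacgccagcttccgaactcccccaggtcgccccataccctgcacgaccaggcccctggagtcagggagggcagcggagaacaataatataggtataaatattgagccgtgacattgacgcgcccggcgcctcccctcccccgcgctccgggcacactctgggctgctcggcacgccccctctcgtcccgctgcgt

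The cyclins of G1 had positive differences in all 4 genes with a row, with a median of 0.59, and 0 of the 4 passed the test. Ccnd2, cyclin D2, read 3.64 and 3.92 in WT and 4.33 and 4.94 in dbTg. Both dbTg arrays were higher than both WT arrays, by 0.42 at the nearest. The difference was 0.86 (SE 0.26, limma adjusted p = 0.146). Ccnd3, the cyclin D3 that accumulates when myoblasts differentiate, read 2.28 and 1.95 in WT and 2.82 and 2.85 in dbTg. The dbTg arrays were again both higher, and the difference was 0.72 (SE 0.22, limma adjusted p = 0.151). Ccne1, cyclin E1, read 1.99 and 1.57 in WT and 2.15 and 2.31 in dbTg, without overlap (difference 0.45, limma adjusted p = 0.341). Ccnd1, the cyclin D1 that answers growth factors, read 3.29 and 2.36 in WT and 3.01 and 3.37 in dbTg. Here WT replicate 1 lay between the dbTg arrays, and the difference of 0.37 became -0.09 without WT replicate 2.

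The CDK inhibitors had positive differences in 3 of 3 genes, and 0 passed. Cdkn1c, which encodes p57 and is expressed from the maternal allele, read 1.79 and 1.71 in WT and 2.70 and 2.87 in dbTg. The groups were 0.90 apart at the nearest arrays, the widest gap after Cdk6 among the 34 members. The 2.05-fold difference (log2 difference 1.03, SE 0.21) did not pass (limma adjusted p = 0.0597). The adjusted p was 0.0498 without WT replicate 1, where the spread comes from the dbTg pair alone. Over all alternatives its adjusted p ran from 0.0498 to 0.411. Cdkn1b, which encodes p27, read 3.45 and 3.80 in WT and 3.77 and 4.19 in dbTg, with dbTg replicate 1 below WT replicate 2 (difference 0.35, 95% interval -0.23 to 0.93). Cdkn2c, which encodes p18 and binds Cdk4 and Cdk6, read 2.13 and 2.87 in WT and 3.27 and 2.19 in dbTg. Its arrays were spread within both groups, with SDs of 0.53 and 0.76, and its difference of 0.23 turned to -0.15 without WT replicate 1 and to -0.31 without dbTg replicate 1.

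E2f1, the factor that D and E cyclin kinases release, lay under the filter at 1.21 and 1.17 in WT and 1.24 and 1.39 in dbTg. The groups did not overlap, by 0.04 at the nearest. The difference was 0.13, with a 95% interval of -0.26 to 0.51 in the fit without a filter.

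**Figure D2:**
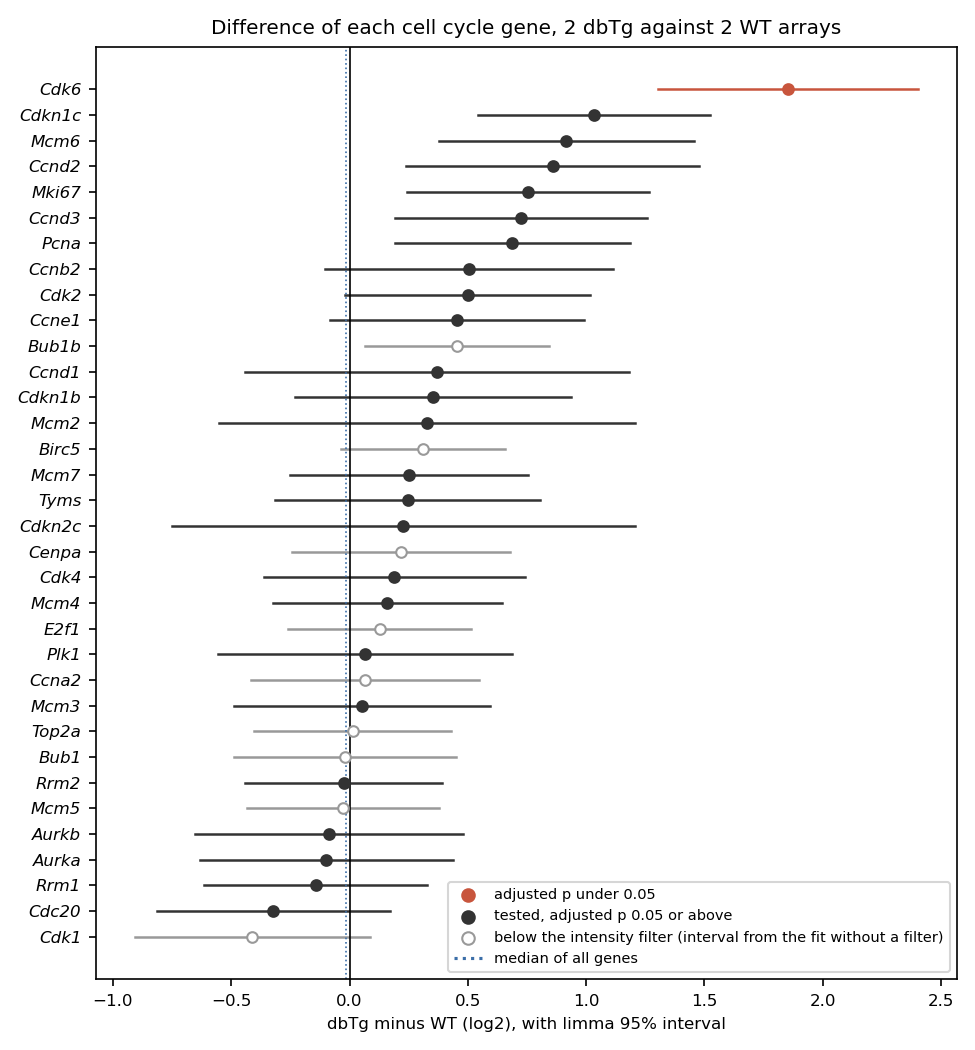
dbTg minus WT log2 difference of each cell cycle gene with its limma 95% interval, ordered by size; red is an adjusted p under 0.05, black is tested without passing, and open grey points lie under the intensity filter, with intervals from the fit without one. Cdk6 at 1.85 is the 1 red point, Cdkn1c follows at 1.03, and the lowest points are Cdc20 at -0.32 and Cdk1 at -0.41.

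In the replication group 7 of 10 differences were positive and 3 negative, the median was 0.20, and 0 of the 9 tested genes passed. The helicase that unwinds DNA at the fork is a ring of Mcm2 to Mcm7, and its genes did not show equal differences. Mcm6 read 1.36 and 1.77 in WT and 2.38 and 2.57 in dbTg. Both dbTg arrays were higher by 0.62 or more, and the difference was 0.92 (SE 0.23, limma adjusted p = 0.0957). Without WT replicate 2, where the spread comes from the dbTg pair alone, the Mcm6 difference was 1.12 (adjusted p = 0.0403). Mcm7 differed by 0.25 and Mcm4 by 0.16, both without overlap of the groups, and their 95% intervals were -0.25 to 0.75 and -0.32 to 0.65. Mcm2 differed by 0.33 and Mcm3 by 0.05, both with overlap, and Mcm5, under the filter, by -0.03. Mcm2 read 3.04 on WT replicate 1 and 1.96 on WT replicate 2, with dbTg at 2.97 and 2.67, which gave a difference of -0.21 when WT replicate 2 was left out. Mcm3 turned to -0.04 when WT replicate 2 was left out and to -0.16 when dbTg replicate 2 was. Whether the Mcm genes differ from each other was not tested.

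Pcna, the sliding clamp of the DNA polymerases, which also serves DNA repair, read 4.78 and 4.99 in WT and 5.37 and 5.78 in dbTg. The dbTg pair lay above the WT pair, by 0.38 at the nearest. The difference was 0.69 (SE 0.21, limma adjusted p = 0.146). The genes of nucleotide supply gave no such separation. Rrm1, the large subunit of ribonucleotide reductase, read 4.83 and 4.73 in WT and 4.79 and 4.49 in dbTg (difference -0.14, 95% interval -0.61 to 0.33). Rrm2, the small subunit that is made in S phase, differed by -0.02 (95% interval -0.44 to 0.39). Its sign turned with the setting, from -0.10 to 0.05 over the arrays left out, and it was 0.03 after quantile normalization. Tyms, thymidylate synthase, read 1.46 and 1.48 in WT and 1.42 and 2.01 in dbTg, so only dbTg replicate 2 was high. Its difference of 0.25 became -0.05 without that array. A further probe set is annotated to both Tyms and its pseudogene Tyms-ps, and whether the probe set used here tells them apart was not tested. Mcm7 and Top2a each have 2 further probe sets shared with other symbols, which were not used. Rrm2 has 2 probe sets of its own, and the values given are those of the brightest.

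Mcm6 has the most E2F letters of the members in the 250 bases before its start, chr1:128359706-128359955 of GRCm38.p6, minus strand, printed in the gene's direction. In the stretch below, capitals mark E2F letters as TTTGGCGC at 110 and 47 bases before the start and as GCGCGAAA, the opposite strand, at 106 bases. The first of these runs into GCGCGAAA, and CCAAT letters on the opposite strand (ATTGG) stand at 57 and 14 bases.
Mcm6: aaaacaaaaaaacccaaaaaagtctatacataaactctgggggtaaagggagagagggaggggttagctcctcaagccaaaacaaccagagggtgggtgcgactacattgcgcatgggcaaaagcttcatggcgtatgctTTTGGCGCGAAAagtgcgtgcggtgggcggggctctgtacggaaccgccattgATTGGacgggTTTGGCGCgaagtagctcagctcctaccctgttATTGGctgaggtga

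RefSeq promoter windows were matched by symbol for 29 of the 36 genes, in 32 windows. E2F letters were in 15.6% of these windows, in Cdk2, Mcm5, Mcm6, Mcm7 and Cdk1, and in 1.86% of all 32851 windows. CHR letters were in 25% against 17.1%, and CCAAT letters in 71.9% against 33.8%. The 5 members with E2F letters had a median difference of 0.25, in a range of -0.41 to 0.92, and the 23 measured members whose windows lack them had a median of 0.23. These shares describe the letters and were not tested.

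Late cycle genes showed no common direction. The G2 and mitosis cyclins and their kinase had differences of 0.07 (Ccna2), 0.51 (Ccnb2) and -0.41 (Cdk1), and the 7 genes of mitotic kinases and checkpoint had a median of -0.02. Of these 10 genes 5 were tested and 0 passed. Ccnb2, cyclin B2, read 2.09 and 1.48 in WT and 2.23 and 2.35 in dbTg, without overlap (difference 0.51, limma adjusted p = 0.350). Cdk1, the kinase that starts mitosis, read 1.72 and 1.22 in WT and 1.10 and 1.02 in dbTg. Both dbTg arrays were lower than both WT arrays, with all values near or under the filter level, and the 95% interval was -0.91 to 0.08 without a filter. Cdc20, the activator of the anaphase-promoting complex, read 1.94 and 1.56 in WT and 1.33 and 1.53 in dbTg, also without overlap, at -0.32 (limma adjusted p = 0.462).

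Aurka, the kinase of spindle poles, differed by -0.10 (95% interval -0.63 to 0.44), and by 0.06 without WT replicate 1 and 0.10 without dbTg replicate 2. Aurkb, the kinase of the chromosomal passenger complex, differed by -0.09 (95% interval -0.65 to 0.48), and by 0.19 without WT replicate 2. Plk1, which acts through mitosis, read 1.30 and 2.00 in WT and 1.66 and 1.78 in dbTg. Its difference of 0.07 turned to -0.28 without WT replicate 1. Under the filter, Bub1b, a spindle checkpoint kinase-like protein, read 1.10 and 1.04 in WT and 1.47 and 1.57 in dbTg. These groups did not overlap, and the fit without a filter gave an unadjusted p of 0.0285 and an adjusted p of 0.251. Birc5, the passenger protein survivin, read 0.88 and 0.73 in WT and 1.14 and 1.09 in dbTg, with an adjusted p of 0.357 in that limma fit. Bub1, the other checkpoint kinase, differed by -0.02.

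Mki67, the marker of proliferating cells Ki-67, read 1.89 and 2.14 in WT and 2.75 and 2.79 in dbTg. Both dbTg arrays were higher by at least 0.60. The difference was 0.75 (SE 0.21, limma adjusted p = 0.129), and it ranged from 0.63 to 0.88 with 1 array left out. Top2a, the topoisomerase that untangles chromosomes and is another usual proliferation marker, did not show this: it read 1.34 and 1.52 in WT and 1.43 and 1.46 in dbTg. The dbTg arrays of Top2a lay between the WT arrays, and the 95% interval of its difference was -0.40 to 0.43 without a filter. Cenpa, the histone of centromeres, read 1.19 and 1.32 in WT and 1.65 and 1.29 in dbTg, with overlap. The difference between Mki67 and Top2a in their response was not tested.

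CHR and CCAAT letters stand in the upstream stretches of Mki67, Top2a and Cdk1, whose differences were 0.75, 0.01 and -0.41. They are printed as examples of members with CHR letters, picked after their values were seen, and differences between these genes were not tested. The stretches are 250 bases each on the minus strand of GRCm38.p6, in the gene's direction: chr7:135716380-135716629 for Mki67, chr11:99024190-99024439 for Top2a and chr10:69352913-69353162 for Cdk1. Capitals mark CHR and CCAAT letters on either strand and, in Cdk1, the E2F letters TTTCGCGC at 131 bases before the start. Mki67 has 2 CHR matches, at 98 and 116 bases, Cdk1 has 2, at 15 and 71 bases, and Top2a has 4.
Mki67: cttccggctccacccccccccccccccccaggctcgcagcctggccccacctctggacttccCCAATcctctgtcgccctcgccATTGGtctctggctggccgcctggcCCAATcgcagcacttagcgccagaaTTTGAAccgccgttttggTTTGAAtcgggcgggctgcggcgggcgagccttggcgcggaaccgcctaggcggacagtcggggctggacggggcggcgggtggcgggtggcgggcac
Top2a: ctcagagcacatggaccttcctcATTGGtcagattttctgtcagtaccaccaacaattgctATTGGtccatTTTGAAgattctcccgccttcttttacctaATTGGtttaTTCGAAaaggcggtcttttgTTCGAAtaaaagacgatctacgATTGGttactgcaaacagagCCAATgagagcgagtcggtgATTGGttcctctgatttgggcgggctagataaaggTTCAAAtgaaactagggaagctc
Cdk1: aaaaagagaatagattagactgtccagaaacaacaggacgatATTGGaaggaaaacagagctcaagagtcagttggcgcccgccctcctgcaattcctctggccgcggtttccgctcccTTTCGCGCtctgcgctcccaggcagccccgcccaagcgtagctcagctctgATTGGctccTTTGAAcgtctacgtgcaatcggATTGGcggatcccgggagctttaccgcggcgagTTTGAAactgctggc

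Fitted without an intensity filter, so that all 34 members enter, limma called 1 member, Cdk6 (adjusted p = 0.0221). Before adjustment, 9 members had p under 0.05 and were higher and 0 were lower, where 9.2% of all genes were higher and 6.65% lower. The added genes were Cdk2 and Bub1b.

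**Figure D3:**
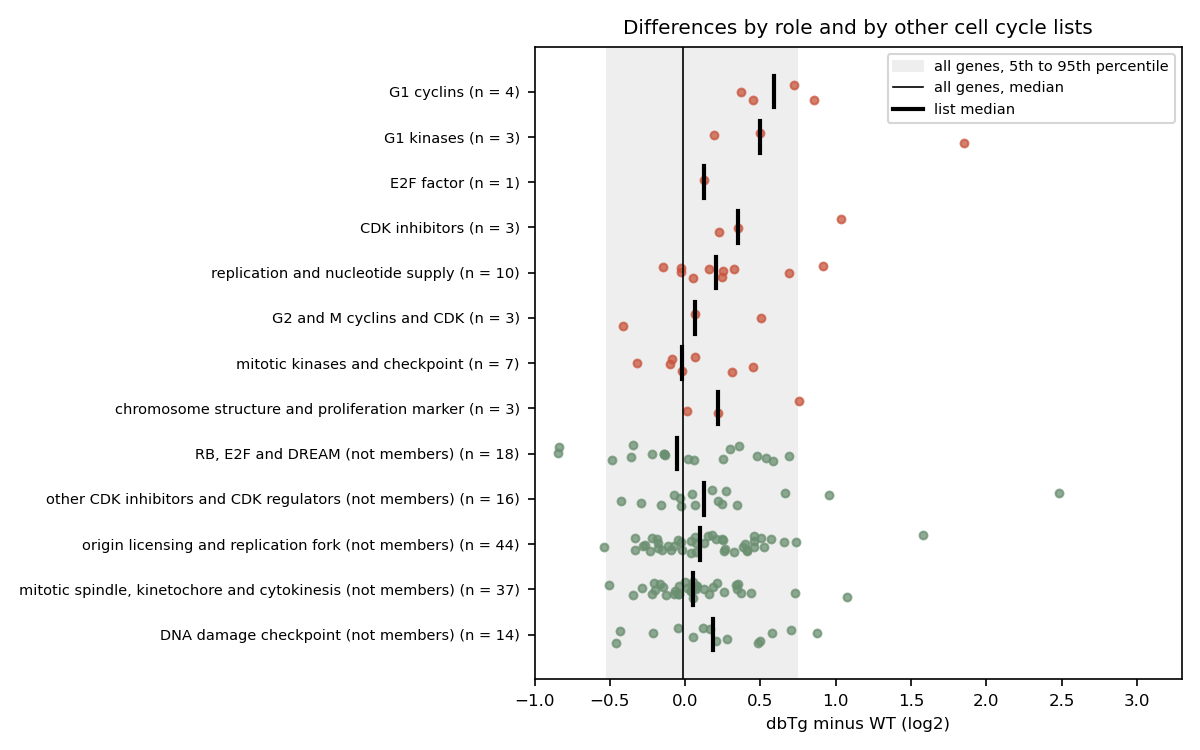
dbTg minus WT log2 difference of each gene by role (red, members) and for 5 other cell cycle lists (green), with the list median as a thick bar; the grey band holds the 5th to 95th percentile of all genes, -0.52 to 0.74. The medians of the G1 cyclins (0.59) and G1 kinases (0.50) lie to the right of the all-gene median, and that of the mitotic kinases and checkpoint (-0.02) lies on it.

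Beyond the members, 5 lists hold 136 further genes of the cycle, 129 of them with a row and 94 tested. Limma called 1 of the 94 higher and 0 lower; before adjustment 16 were higher and 2 lower at p under 0.05. Over all tested genes 2.01% were called higher and 0.203% lower, and before adjustment 14% were higher and 4.64% lower, which is also the background of the counts by list. The median over the 129 was 0.07, with 61.2% of differences positive, against 47.9% of all genes. Of the 129 genes 35 lay under the filter. The median over all tested genes, which leave out the dim ones, was 0.09. Of 11 tested genes of the DNA damage checkpoint 1 was called and 3 were higher before adjustment. The called gene was Mdm2, the ubiquitin ligase that degrades p53. It read 5.46 and 5.49 in WT and 6.35 and 6.36 in dbTg and rose by 0.88 (SE 0.16, limma adjusted p = 0.0465). It lost the call without dbTg replicate 1 (adjusted p = 0.280), without dbTg replicate 2 (0.383), with sex as a block (0.100), after quantile normalization (0.0754), without a filter (0.0741) and without an intensity trend (0.0713).

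Of 38 tested genes of origin licensing and the replication fork, 0 passed, and before adjustment 5 were higher and 0 lower. Prim1, the primase subunit that starts each DNA strand, read 1.84 and 1.25 in WT and 3.44 and 2.81 in dbTg. Its groups were well apart, yet the difference of 1.58 (SE 0.31) did not pass (limma adjusted p = 0.0566). It passed without WT replicate 1 (0.0150, with the spread of the dbTg pair alone), with the filter at the 60th percentile (0.0483) and with robust eBayes (0.0489). Pole2, a subunit of the leading strand polymerase, differed by 0.74 (limma adjusted p = 0.109). Of 17 tested genes of spindle, kinetochore and cytokinesis, 0 passed, and before adjustment 3 were higher and 0 lower. Smc4, a condensin subunit, differed by 1.07 (limma adjusted p = 0.0661; 0.0246 without WT replicate 2, with the spread of the dbTg pair alone), and Kif11, a spindle motor, by 0.73 (limma adjusted p = 0.111).

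Among the RB, E2F and DREAM genes, 0 of 15 tested passed, and before adjustment 2 were higher and 2 lower. The median over 18 genes was -0.06. Rb1, the retinoblastoma protein that holds E2F factors, read 6.25 and 6.47 in WT and 6.93 and 7.17 in dbTg (difference 0.69, limma adjusted p = 0.0931). Lin52, a subunit of DREAM, read 4.94 and 5.19 in WT and 4.14 and 4.31 in dbTg (difference -0.84, limma adjusted p = 0.0844; 0.0435 without WT replicate 1, with the spread of the dbTg pair alone). So the groups of both genes were apart in opposite directions. Of 13 tested regulators and inhibitors of CDKs outside the members, 0 passed, and before adjustment 3 were higher and 0 lower. Wee1, which holds Cdk1 inactive, differed by 0.96 (limma adjusted p = 0.138) and Cdkn2b, which encodes p15, by 0.66 (limma adjusted p = 0.156).

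Markers of other cells differed in the same mice. Of 12 macrophage and monocyte markers, 8 were called higher and 12 had positive differences, with a median of 1.81. The count of calls was 1 without dbTg replicate 1, 1 without dbTg replicate 2 and 3 with sex as a block. Their summed linear level was 135 and 114 in WT and 722 and 635 in dbTg. Ctss, a lysosomal protease of these cells, rose by 4.23 (limma adjusted p = 0.000494) and Cd68, a macrophage glycoprotein, by 3.76 (limma adjusted p = 0.00335; 0.0795 without dbTg replicate 1, 0.0909 without dbTg replicate 2). The summed level of the 34 cell cycle genes was 219 and 211 in WT and 273 and 296 in dbTg. Such a linear sum mostly follows the brightest members, such as Pcna, Cdk4, Rrm1 and Ccnd2. For the replication group it was 89.5 and 88.1 in WT and 106 and 115 in dbTg. For the mitotic kinases and checkpoint genes it was 19.5 and 20.2 in WT and 20.4 and 19.4 in dbTg. Of 10 markers of satellite cells and myoblasts, 1 was called higher, and 8 differences were positive, with a median of 0.56. Their summed level was 1006 and 874 in WT and 1195 and 1349 in dbTg. That sum rests mostly on Des, whose mean level exceeded that of 99.8% of all genes, and so mainly follows that gene. Des read 9.89 and 9.67 in WT and 10.09 and 10.29 in dbTg. Myf5, a factor of satellite cells and myoblasts, read 1.27 and 1.11 in WT and 2.27 and 2.35 in dbTg (difference 1.12, limma adjusted p = 0.0397). Pax7, which defines satellite cells, read 1.83 and 2.31 in WT and 1.69 and 1.90 in dbTg, with overlap. Pax7 was 1 of the 2 markers of this list with a negative difference. At an unadjusted limma p under 0.05, 6 of the 9 tested markers were higher and 0 lower. Of all tested genes 14% were higher and 4.64% lower at that threshold. Myf5 lost its call without either dbTg array (0.210 and 0.305), with sex as a block (0.0958), after quantile normalization (0.0543) and without a filter (0.0578).

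Fibroblast and adipogenic progenitor markers had 7 of 7 positive differences, 0 called, with a median of 0.68, and the brightest, Dcn, differed by 0.31. At an unadjusted limma p under 0.05, 4 of the 7 were higher and 0 lower, against 14% and 4.64% of all tested genes. Adipocyte markers had 2 of 5 called higher, the adipokine genes Adipoq (1.47) and Lep (1.31), and both lost the call without either dbTg array, with sex as a block (0.0793 and 0.100) and after quantile normalization, and Lep also without a filter. Endothelial markers had 8 of 8 negative differences, 0 called, with a median of -0.50, and the brightest, Cdh5, differed by -0.85. At an unadjusted limma p under 0.05, 4 of the 8 were lower and 0 higher, against 4.64% and 14% of all tested genes. B cell and plasma cell markers had 3 positive and 2 negative differences, with a median of 0.02. Of the 3 tested, 1 was called higher, the immunoglobulin J chain gene Jchain (1.17). Jchain lost its call without either dbTg array. It also lost it with sex as a block (limma adjusted p = 0.0854), after quantile normalization (0.0540) and without a filter (0.0567). Of the T cell and NK cell, neutrophil, smooth muscle and Schwann cell markers 0 were called, and their brightest members Nkg7, Cxcr2, Rgs5 and Pmp22 differed by 0.26, -0.54, -0.51 and 0.71. In the same order the list medians were 0.08, -0.20, -0.30 and -0.06. Positive and negative differences numbered 5 and 3, 0 and 5, 2 and 4, and 1 and 2. Pmp22 thus differed in sign from its list median. Red blood cell markers have no row here. The part of these cell types in the values of the cell cycle genes was not tested.

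**Figure D4:**
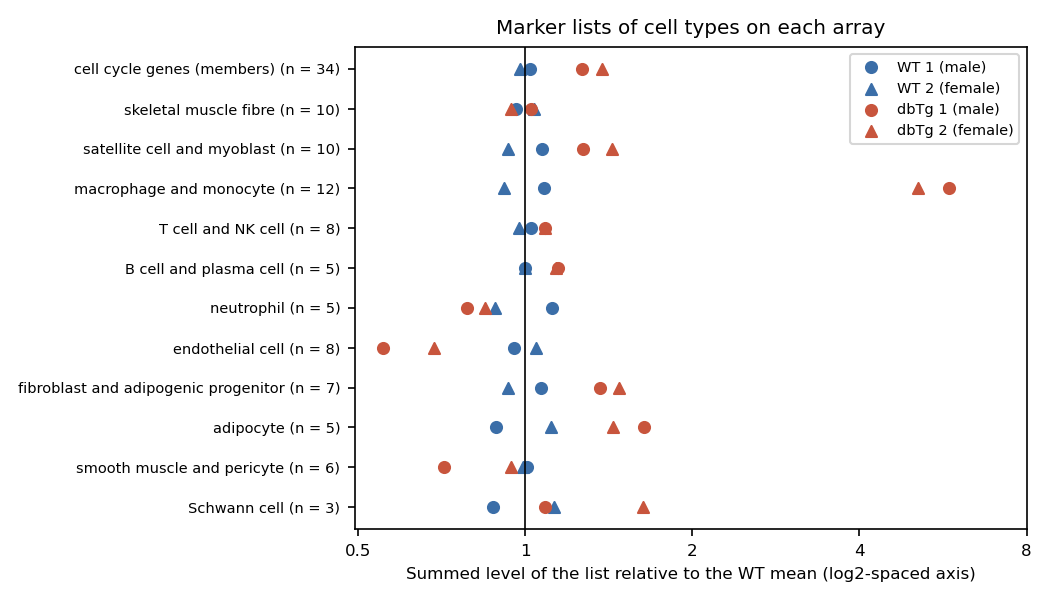
Summed linear level of the cell cycle genes and of each marker list on the 4 arrays, relative to the mean of the WT arrays, on a log2-spaced axis. Macrophage and monocyte markers reach 5.81 and 5.11 on the dbTg arrays, the cell cycle genes 1.27 and 1.37, and endothelial markers 0.56 and 0.69. The sum of the satellite cell and myoblast markers rests mostly on Des, and that of the cell cycle genes mostly follows their brightest members.

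**Figure D5:**
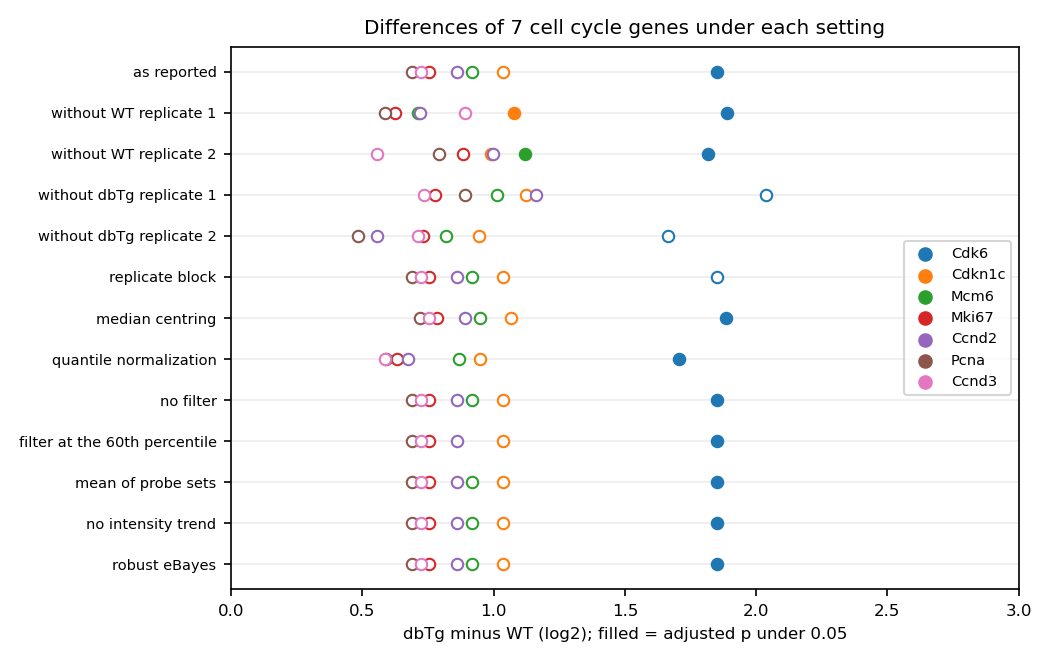
dbTg minus WT log2 difference of the 7 cell cycle genes with an unadjusted p under 0.05, as reported and under each alternative; filled points have an adjusted p under 0.05. Cdk6 stays between 1.67 and 2.04 and is open without either dbTg array and with the replicate block, Cdkn1c and Mcm6 are filled under 1 alternative each, and Mcm6 has no point at the 60th percentile filter because it was not tested there.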

How the data were processed

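Total RNA was hybridised to 1 Affymetrix array per mouse. The deposited values are on the log2 scale and were made by the authors, who ran RMA in Affymetrix Expression Console according to the submitters' processing notes. RMA corrects background, equalises distributions and summarises probes, which compresses differences of dim genes. No software version or genome build is given in the sources. There are no detection calls, and the small number of arrays limits the precision.

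Of 41345 probe sets, 23521 have exactly 1 symbol, 1814 several and 16010 none. Symbols were checked through Entrez identifiers against RefSeq (GRCm38.p6) for 23328, and 0 changed. Each gene took its brightest probe set. The fit took genes whose mean reached the 40th percentile and was made with limma 3.58.1 in R 4.3.3 (lmFit, eBayes with an intensity trend, no block), two-sided, Benjamini-Hochberg adjusted over 13308 genes. The procedure was tested on simulated data. SEs and 95% intervals are limma's. A permutation test of 2 against 2 arrays cannot go below p = 0.333.

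All members are named. From other lists the text names called genes (up to 6 per cycle list, up to 2 per marker list), or those with the smallest p-values or the brightest marker. Pax7 and Des, and Cdkn1a in the closing section, were chosen after their values were seen. The members and lists were chosen with earlier results of these data known. Promoter sequences are RefSeq's (GRCm38.p6). The alternatives left out 1 array, blocked on replicate number, centred medians, normalized quantiles, changed the filter, averaged probe sets, dropped the trend or used robust eBayes.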

Additional observations from a re-analysis of the deposited data

Results flagged for a closer look

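For 13 of the 34 cell cycle genes the male pair and the female pair of arrays differed in opposite directions (38.2% of the members, against 38.3% of all genes). With 1 array per sex and genotype, the difference between the sexes was not tested. Each value here is the dbTg minus WT difference in the male pair minus that in the female pair, on the log2 scale. It was highest for Cdkn2c, at 1.82 (1.14 in males, -0.68 in females), and lowest for Ccnd1, at -1.28 (-0.27 in males, 1.01 in females). Among replication genes it was -0.78 for Mcm2, -0.61 for Mcm3, -0.57 for Tyms and 0.29 for Rrm2. It was -0.39 for Cdk4. Among genes of the late cycle it was 0.63 for Aurkb, 0.61 for Ccna2, 0.58 for Plk1, 0.50 for Cenpa, 0.22 for Bub1 and 0.15 for Top2a. Cdk6, Cdkn1c, Mcm6, Mki67, Pcna, Ccnd2 and Ccnd3 were higher in dbTg in both pairs.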

How the results depend on the processing

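Cdk6 stayed positive under all 12 alternatives and called under 9, and was not called without either dbTg array or with the replicate number as a block (adjusted p = 0.0602). The replicate number is the sex of the mouse, so that block is a block on sex. The labels give no other pairing, and deviations of same-numbered arrays correlated at 0.05 across genes. With the replicate block the calls were 63 higher and 2 lower of all genes, 0 of the members and 0 of the other cycle genes, in place of 267, 27, 1 and 1. Over all genes, calls were 120 higher and 7 lower after quantile normalization, 165 and 7 without a filter, 44 lower with the filter at the 60th percentile and 14 lower without a trend. Leaving out 1 array gave 4 to 610 higher and 0 to 156 lower. The members had 0 to 2 higher, and the other cycle genes 0 to 3 higher and 0 to 1 lower. The other cycle genes had 0 higher after quantile normalization, without a filter or without a trend, and 2 with the 60th percentile filter or robust eBayes. The members' median was 0.27 after median centring, 0.16 after quantile normalization and 0.19 to 0.24 with 1 array left out. Of the 25 tested members 14 kept their sign throughout. With 1 array left out the others ranged from -0.093 to 0.83 (Ccnd1), -0.078 to 0.46 (Cdk4), -0.31 to 0.77 (Cdkn2c), -0.21 to 0.87 (Mcm2), -0.16 to 0.27 (Mcm3), -0.30 to 0.010 (Rrm1), -0.10 to 0.054 (Rrm2), -0.052 to 0.54 (Tyms), -0.29 to 0.10 (Aurka), -0.36 to 0.19 (Aurkb) and -0.28 to 0.41 (Plk1), and Myh4 from -0.060 to 0.046. Rrm2 was at 0.0075 after median centring and 0.028 after quantile normalization, and Myh4 at 0.025 after median centring. The cause was not tested. Nothing was run on members without their own probe set.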

Other observations

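Cdkn1a, which encodes the CDK inhibitor p21, had the highest difference of the 129 cycle genes outside the members, and its value rests on 1 WT array. It read 3.14 on WT replicate 1 and 6.51 on WT replicate 2, and 7.11 and 7.52 on the dbTg arrays. The difference was 2.48 (SE 0.94, limma adjusted p = 0.221), 0.80 without WT replicate 1 and 4.17 without WT replicate 2 (both with 1 WT array left). No p is given for these, since the spread would come from the dbTg pair alone.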
